A study of Homo sapiens with 7 samples.

Results

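The 6 genes named as sinus node factors, SHOX2, ISL1, TBX18, VSNL1, RGS6 and CPNE5, were followed through 3 single-cell RNA libraries of cardiac cells differentiated from the human embryonic stem cell line H1. They were taken by name, as 6 of the 21262 genes listed for all 3 libraries, and no level or fold entered that rule. The groups were CHIR at day 15 of differentiation, DMSO at day 15, and day 11, with 1 library each. CHIR is the usual short name of a GSK3 inhibitor that activates canonical Wnt signalling, and DMSO is its vehicle. For CHIR the labels state no dose and no timing. For day 11 they state no treatment, so time and treatment cannot be told apart there. The study's title concerns the making of atrioventricular canal cardiomyocytes by canonical Wnt signalling, and the sinus node is the pacemaker region upstream of that canal.

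The sinus node starts the heartbeat and forms at the venous inlet of the heart, in the mouse from progenitors with ISL1 and TBX18 that, unlike chamber muscle, come to hold little NKX2-5. SHOX2 is a homeobox factor that restrains NKX2-5 in the mouse node, and ISL1 is a LIM-homeobox factor of second heart field progenitors that stays on in pacemaker cells. TBX18 is a T-box factor of the venous inlet and also of the epicardium, the outer cell layer of the heart. VSNL1 encodes a calcium sensor of the visinin family, RGS6 a protein that shortens the G protein signal by which the vagus nerve slows pacemaker cells, and CPNE5 a calcium-dependent membrane-binding copine. These 3 are not transcription factors.

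The libraries held 81076689 transcript counts (UMIs, unique molecular identifiers) in 5607 cells with CHIR, 65675862 in 4015 cells with DMSO and 75906387 in 5683 cells at day 11, with medians of 12687, 15250 and 12689 UMIs per cell in that order. After removal of called doublets, cells were placed in classes by UMIs of marker genes, none of them a member. Muscle cells, with at least 60 UMIs of 10 sarcomere and related genes per 10000, came to 1312 of the CHIR cells kept (23.4%), 1827 of the DMSO cells kept (48.1%) and 3218 of the day 11 cells kept (56.6%). Mesenchymal-like cells were 3591, 1202 and 992, and mixed cells, which passed both cut-offs, were 423, 237 and 937 in the same order. Epicardial-like cells numbered 124, 411 and 213, and small endothelial-like and endoderm-like classes and an unplaced class, called other, made up the rest. Mixed cells with CHIR had a median of 22828 UMIs. Of these 423 cells 231 lay in the top 6% of doublet scores, as did 204 of 937 at day 11. With DMSO 12 of 237 did, but that count followed the removal of called doublets, so it cannot be set beside the others. The doublet caller marked 0 CHIR, 220 DMSO and 1 day 11 cells and thus failed in the CHIR and day 11 libraries, so mixed cells are kept apart throughout. Ribosomal protein genes took 33.4% of UMIs with CHIR, 25.4% with DMSO and 15.6% at day 11. Every interval below is a 95% interval of counting error, and no difference between libraries has a replicate check.

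Promoter sequences of all 6 genes were matched in RefSeq (GRCh38.p14), each running from 250 bases before the transcription start to 50 after it, in 11 entries because VSNL1, RGS6 and CPNE5 have several starts. Those of the 3 transcription factors are printed because their levels lead the account and their base composition differs. Capitals mark matches to 1 of 4 motifs searched on both strands, which were CTTTGAT for TCF/LEF, the factors of canonical Wnt signalling, GGTGTGA for T-box factors, AGATAA for GATA factors, and the CCAAT box. SHOX2 lies on the minus strand at chr3:158106114-158106413, ISL1 on the plus strand at chr5:51383198-51383497 and TBX18 on the minus strand at chr6:84764549-84764848.
SHOX2: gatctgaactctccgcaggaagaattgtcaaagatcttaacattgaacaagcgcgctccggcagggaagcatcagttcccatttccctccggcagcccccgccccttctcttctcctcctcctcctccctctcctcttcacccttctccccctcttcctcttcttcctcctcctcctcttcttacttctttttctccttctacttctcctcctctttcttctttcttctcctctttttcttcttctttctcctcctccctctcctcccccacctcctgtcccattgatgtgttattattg
ISL1: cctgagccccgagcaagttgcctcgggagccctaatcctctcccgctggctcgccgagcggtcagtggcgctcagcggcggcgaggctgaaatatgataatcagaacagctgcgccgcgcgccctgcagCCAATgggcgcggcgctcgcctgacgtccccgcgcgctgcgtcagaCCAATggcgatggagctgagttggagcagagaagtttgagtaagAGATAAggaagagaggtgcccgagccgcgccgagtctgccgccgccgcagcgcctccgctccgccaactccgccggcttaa
TBX18: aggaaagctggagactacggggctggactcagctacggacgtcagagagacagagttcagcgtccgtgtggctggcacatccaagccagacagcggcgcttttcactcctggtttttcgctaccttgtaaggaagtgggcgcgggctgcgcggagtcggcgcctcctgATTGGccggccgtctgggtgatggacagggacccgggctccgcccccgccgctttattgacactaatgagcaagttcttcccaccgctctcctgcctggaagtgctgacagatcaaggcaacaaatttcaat
The SHOX2 promoter was 79.3% C and T on the strand printed, against a median of 49.7% over 35116 promoters, of which 0.0541% reached as much. It held 6 CpG pairs and none of the 4 motifs. The ISL1 promoter had 66.7% G and C and 36 CpG pairs, against a median of 14, and 12.7% of promoters held as many. It carried a GATA match 31 bases before the start and CCAAT boxes 121 and 75 bases before it. TBX18 held 21 CpG pairs and a CCAAT box on the opposite strand 82 bases before the start. No member promoter held the TCF/LEF letters, which 2.62% of all promoters did, and the T-box letters, in 3.45% of all, were found in 1 RGS6 entry. GATA letters were in 10.3% and a CCAAT box in 34.6% of all promoters. A match is a description of these letters and not a bound site, and its absence says nothing of the factor.

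In muscle cells the 6 genes did not move as 1 group. SHOX2, the gene with the sharpest pattern, was near or at 0 in 2 of the 3 libraries. Levels are given in CPM, the summed UMIs of a gene scaled to a fixed sum of all UMIs of the same cells. SHOX2 stood at 0.360 CPM with CHIR (interval 0.145 to 0.743, 7 UMIs), 12.7 CPM with DMSO (11.4 to 14.3, 303 UMIs) and 0 CPM at day 11 (0 to 0.0990). A SHOX2 UMI was seen in 5 of 1312 muscle cells with CHIR (0.381%), in 80 of 1827 with DMSO (4.38%, 3.49 to 5.42) and in 0 of 3218 at day 11 (exact interval 0 to 0.115%). A count of 0 limits the share of cells with a UMI, not of cells expressing the gene. The DMSO level lay above both others with no overlap of intervals. The signal was held by few cells with several UMIs each. Of the 80 DMSO cells, 22 had 1 UMI, 17 had 2, 21 had 3 to 5 and 20 had more than 5, up to 14, and 10 cells held 102 of the 303 UMIs (33.7%). After each cell was thinned to 6000 UMIs, leaving out shallower cells, the share was 0.0786% with CHIR and 3.35% with DMSO.

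ISL1, by contrast, was at a like level with DMSO and at day 11 and low with CHIR. It stood at 4.68 CPM with CHIR (3.77 to 5.75), 30.9 CPM with DMSO (28.7 to 33.2) and 31.4 CPM at day 11 (29.7 to 33.3). The DMSO and day 11 intervals overlap, and the CHIR interval lies below both. ISL1 UMIs were in 76 CHIR (5.79%), 283 DMSO (15.5%) and 604 day 11 (18.8%) muscle cells, and in 2.67%, 10.7% and 12.7% of thinned cells in that order.

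TBX18 was low in muscle cells of every library. It reached 0.103 CPM with CHIR (0.0125 to 0.372, 2 UMIs), 3.41 CPM with DMSO (2.71 to 4.24, 81 UMIs) and 1.34 CPM at day 11 (0.996 to 1.77, 50 UMIs). The 3 intervals do not overlap. The shares of muscle cells were 0.152% with CHIR, 3.39% with DMSO and 1.18% at day 11.

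Of the 3 signalling genes, VSNL1 followed the order of SHOX2 over a narrower range. It stood at 3.96 CPM with CHIR (3.13 to 4.95), 7.95 CPM with DMSO (6.86 to 9.17) and 2.12 CPM at day 11 (1.68 to 2.64), with UMIs in 5.11%, 7.33% and 2.21% of muscle cells in that order. RGS6 ran the other way with time. It was 0 CPM with CHIR (0 to 0.190), 1.22 CPM with DMSO (0.817 to 1.75) and 10.5 CPM at day 11 (9.45 to 11.6). No RGS6 UMI was found in 1312 CHIR muscle cells (exact interval 0 to 0.281%), while 29 DMSO cells (1.59%) held 1 UMI each and 269 day 11 cells (8.36%) held 390. CPNE5 was the member with the flattest pattern, at 17.2 CPM with CHIR (15.4 to 19.1), 18.9 CPM with DMSO (17.2 to 20.7) and 28.3 CPM at day 11 (26.6 to 30.1). The CHIR and DMSO intervals of CPNE5 overlap. Its share of muscle cells was 19.8% with CHIR, 20.5% with DMSO and 25.4% at day 11.

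Free RNA in droplets can give UMIs to cells that do not express a gene, so the shares were read beside endothelial-like cells, which were taken to lack these genes, an assumption that was not tested, and whose median depth was 15186 UMIs with CHIR, 18620 with DMSO and 13064 at day 11. In the 70 day 11 endothelial-like cells RGS6 was found in 8.57% (3.21 to 17.7), TBX18 in 5.71% and VSNL1 in 2.86% (0.348 to 9.94), which rest on 6, 4 and 2 cells. The day 11 muscle shares of RGS6, TBX18 and VSNL1 were not above these, so by this measure they cannot be told from background. The levels were not alike for all 3. RGS6 stood at 10.5 CPM in muscle against 9.99 CPM (4.79 to 18.4) in endothelial-like cells, and 73 of the 269 muscle cells with RGS6 held at least 2 UMIs, up to 7. TBX18 stood at 1.34 CPM in muscle, below the 5.99 CPM (2.20 to 13.0) of endothelial-like cells. For VSNL1 the larger mesenchymal-like class gives narrower intervals, which lay below the muscle share in every library. It was in 0.504% (0.164 to 1.17) of those cells against 2.21% (1.73 to 2.77) of muscle at day 11. With CHIR it was in 1.00% (0.703 to 1.39) against 5.11% (3.98 to 6.44). With DMSO it was in 4.66% (3.54 to 6.01) against 7.33% (6.18 to 8.63). Day 11 endoderm-like cells held VSNL1 in 8.90%. ISL1 at day 11, in 7.14% of endothelial-like cells (2.36 to 15.9), was above that in muscle. With CHIR, ISL1, TBX18 and VSNL1 were each in 1 of 44 endothelial-like cells (2.27%), with an exact interval that holds the CHIR muscle shares of all 3. With DMSO no UMI of SHOX2, ISL1, TBX18, VSNL1 or RGS6 fell in the 20 endothelial-like cells, and the exact upper limit of 16.8% lies above the muscle share of each of these 5 genes. The level there was 0 CPM (0 to 9.27), below the muscle levels of ISL1 and SHOX2 with DMSO. The 411 DMSO epicardial-like cells give a closer measure for SHOX2, at 0.818 CPM against 12.7 CPM in muscle. CPNE5 was in 20.5% (CHIR), 20.0% (DMSO) and 15.7% (day 11) of endothelial-like cells, but in 0 of 10 (CHIR), 0 of 20 (DMSO) and 4.11% (day 11) of endoderm-like cells.

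**Figure D1:**
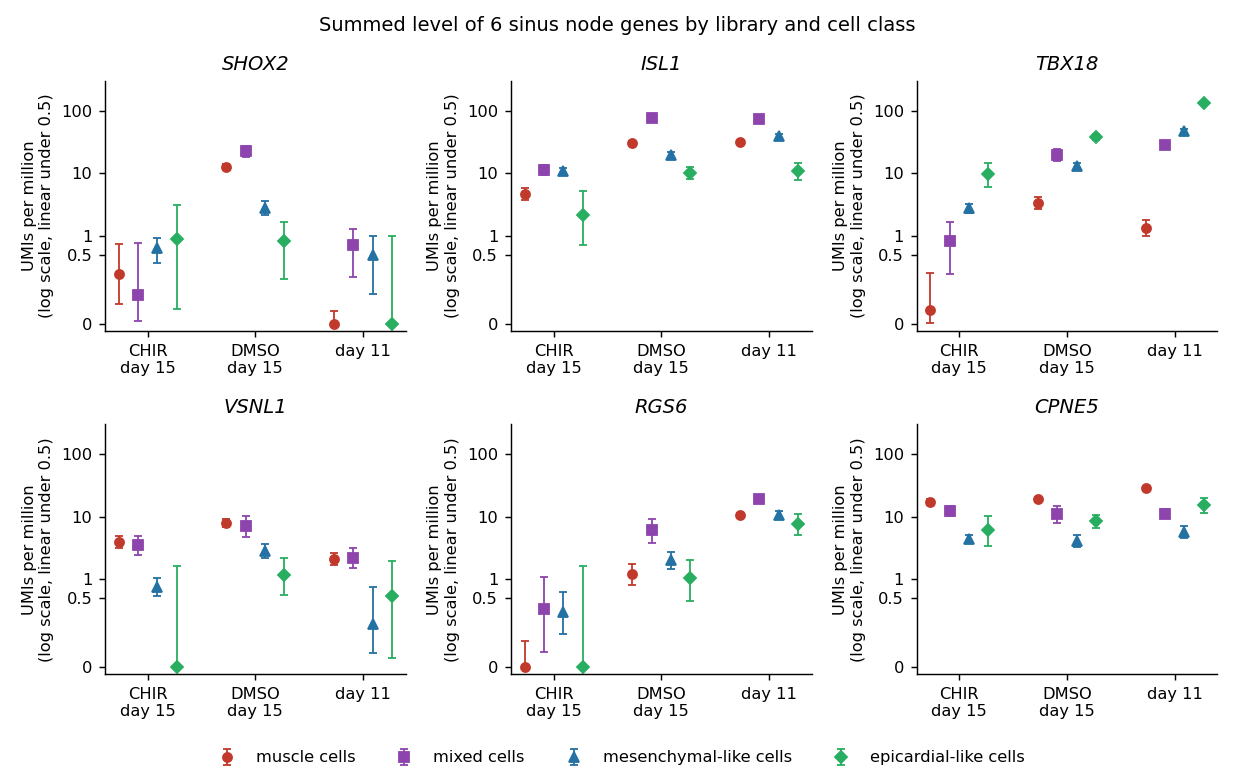
Summed level of each of the 6 genes in CPM (vertical axis, logarithmic above 0.5 and linear below) by library and by muscle, mixed, mesenchymal-like and epicardial-like class. Points are 1 library each and bars are exact Poisson 95% intervals of counting error. SHOX2 stands high in muscle and mixed cells with DMSO only, and among these 4 classes TBX18 is highest in epicardial-like cells and CPNE5 in muscle cells in every library.

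Outside muscle the members parted company. In mixed cells SHOX2 stood at 0.210 CPM with CHIR, 22.6 CPM with DMSO and 0.709 CPM at day 11. Of the 469 SHOX2 UMIs of the DMSO library, 303 (64.6%) were in muscle, 86 (18.3%) in mixed and 61 (13.0%) in mesenchymal-like cells, where the level was 2.82 CPM. At day 11 the whole library held 18 SHOX2 UMIs, 10 of them in mixed and 8 in mesenchymal-like cells. With DMSO, SHOX2 thus lay mostly in muscle and mixed cells, and no endothelial-like or endoderm-like cell held a UMI in any library.

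TBX18 was mainly an epicardial-like and mesenchymal-like transcript in these cultures. In epicardial-like cells it stood at 9.69 CPM with CHIR (14 of 124 cells, 11.3%), 38.1 CPM with DMSO (157 of 411 cells, 38.2%) and 134 CPM at day 11 (121 of 213 cells, 56.8%). Its order in that class was therefore day 11 above DMSO above CHIR, unlike the order in muscle. In mesenchymal-like cells TBX18 was at 2.78 CPM with CHIR, 13.2 CPM with DMSO and 48.2 CPM at day 11. Muscle cells held 81 of the 809 TBX18 UMIs with DMSO (10.0%), against 326 (40.3%) in epicardial-like and 285 (35.2%) in mesenchymal-like cells.

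ISL1 was highest in the small class called other at day 11, where 89 of 106 cells (84.0%) held it at 215 CPM. Those cells also held TBX3, a T-box repressor of chamber genes in the conduction system, and NKX2-5, a core cardiac homeobox factor, at 204 CPM each. Their median level of the epicardial list was 19.1 per 10000, against 13.8 in epicardial-like and 21.3 in endoderm-like cells of day 11. Their median level of the endoderm list was 5.98, against 0.543 and 88.0 in those classes. TBX18 stood at 10.9 CPM in them, so the epicardial list does not place these cells. In mixed cells ISL1 stood at 11.3 CPM with CHIR, 76.9 CPM with DMSO and 74.8 CPM at day 11, and in mesenchymal-like cells at 11.0, 19.8 and 39.9 CPM in that order. VSNL1 was lower in mesenchymal-like than in muscle cells, at 0.758 CPM with CHIR, 2.87 CPM with DMSO and 0.315 CPM at day 11. It reached 25.9 CPM in the 20 DMSO endoderm-like cells and 8.30 CPM in the 146 of day 11. RGS6 at day 11 was found in every class and stood between 7.55 CPM in epicardial-like and 35.2 CPM in other cells. CPNE5 was higher in muscle than in mesenchymal-like cells in every library, which held 4.44 CPM with CHIR, 4.07 CPM with DMSO and 5.68 CPM at day 11.

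CHIR was set against DMSO at day 15, the comparison that asks how the members stood under Wnt activation. In muscle cells 5 of the 6 genes were at least 1.5-fold lower with CHIR and none was higher, where 26.3% of the 15686 genes with at least 20 UMIs were that much lower and 20.5% higher. SHOX2 was 35.4-fold lower (17.0 to 88.7), ISL1 was 6.59-fold lower (5.30 to 8.29) and VSNL1 2.01-fold lower (1.53 to 2.65). TBX18, with 2 UMIs with CHIR and 81 with DMSO, had a ratio of 0.0302 (0.00360 to 0.113), and RGS6, with 0 and 29 UMIs, was at least 7.90-fold lower against a floor of 3 UMIs per library. CPNE5 did not differ by the fold used, at a ratio of 0.910 (0.788 to 1.05). The median log2 ratio of the 6 genes was -2.85 with RGS6 at its bound, against -0.03 over all genes tested. Markers of other cell types moved in the same muscle cells. Of the epicardial list 4 of 7 genes tested were lower with CHIR (TCF21, UPK3B, UPK1B and KRT19) and 1 higher, both endothelial and all 3 endoderm genes tested were lower, and of 9 mesenchymal genes 4 were higher (COL3A1, DCN, POSTN and COL6A3) and 2 lower. The median cell held 3.11 epicardial and 2.49 mesenchymal UMIs per 10000 with CHIR, against 4.47 and 1.92 with DMSO. Leaving out cells with at least 4 epicardial markers removed 5 CHIR and 3 DMSO muscle cells, none of the DMSO ones with SHOX2. The 5 members remained lower, SHOX2 at a log2 ratio of -5.04 and TBX18 at -4.68. So few cells were removed that this step cannot weigh the part of epicardial RNA. The part of all these markers was not tested.

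For these 5 genes the direction was the same in the mixed and mesenchymal-like classes, at other sizes. SHOX2 had a ratio of 0.00930 in mixed cells (0.00111 to 0.0346, 2 against 86 UMIs) and was 4.32-fold lower in mesenchymal-like cells (2.76 to 6.90). ISL1 was 6.78-fold lower with CHIR in mixed but 1.80-fold lower in mesenchymal-like cells. TBX18 was 23.8-fold and 4.75-fold lower, RGS6 14.4-fold and 5.09-fold lower and VSNL1 2.05-fold and 3.79-fold lower in those classes in that order. CPNE5 stayed between the limits in both, at ratios of 1.11 and 1.09. The same 5 genes were thus past the fold in all 3 classes. In mixed cells 23.5% of 13427 genes were that much lower and 28.5% higher. In mesenchymal-like cells 23.7% of 16434 were that much lower and 33.5% higher. The classes share the same CHIR and DMSO libraries and are not separate checks. Of the 423 CHIR mixed cells 231 had top doublet scores, while called doublets had been removed from DMSO. Over all cells without a gate SHOX2 was 13.8-fold, RGS6 6.30-fold, TBX18 5.99-fold, ISL1 2.95-fold and VSNL1 2.75-fold lower with CHIR, where 26.0% of 18672 genes were that much lower and 25.7% higher. With muscle cells that held a SHOX2 UMI left out, ISL1 still had a log2 ratio of -2.26 and VSNL1 of -0.71.

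**Figure D2:**
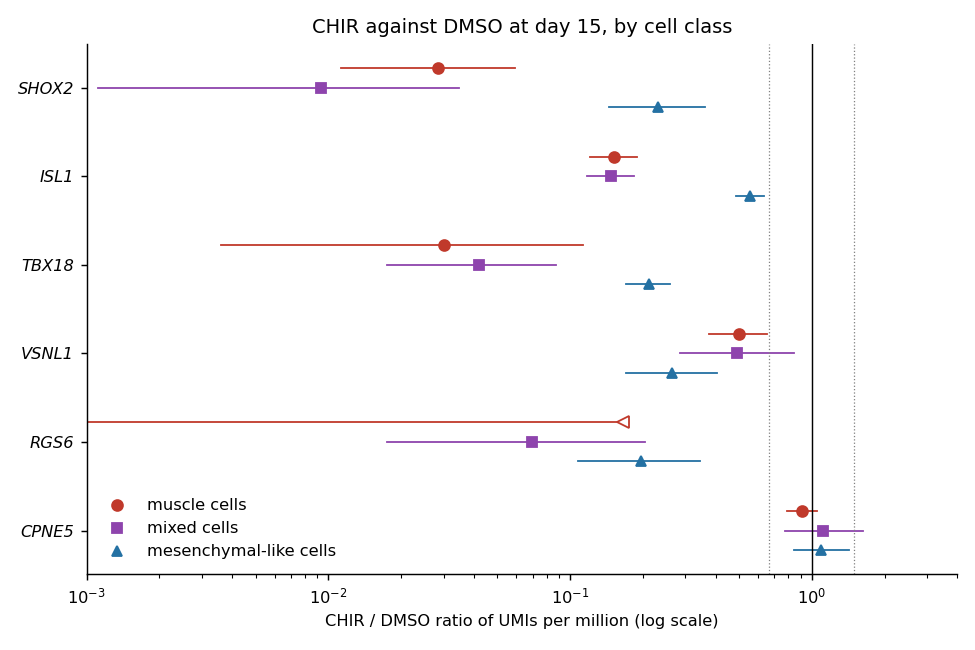
Ratio of CPM, CHIR over DMSO at day 15 (horizontal axis, log scale), for each of the 6 genes in muscle, mixed and mesenchymal-like cells, 1 library per treatment. Lines are 95% intervals of counting error, cut at the left edge, the open triangle is the upper limit for RGS6 with 0 UMIs in CHIR muscle cells, and dotted lines mark 1.5-fold. All genes but CPNE5 lie left of the lower dotted line in all 3 classes.

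Other genes of the pacemaking region were divided with CHIR. The 13 pacemaking and node genes tested in muscle counted 3 higher and 5 lower at a median log2 ratio of -0.06, or 0.12 on totals without mitochondrial and ribosomal genes, where the median of all genes was 0.16. HCN4, the main channel of the pacemaker current, stood at 26.9 CPM with CHIR and 51.0 CPM with DMSO (1.89-fold lower). TBX3 stood at 36.9 CPM with CHIR and 16.2 CPM with DMSO, a ratio of 2.28, and BMP4, a ligand of the BMP family, had a ratio of 2.76. KCNJ5, a subunit of the acetylcholine-gated potassium channel, was also higher, at 2.18, while BMP2, CACNA2D2 and NTM were 2.91-fold, 1.59-fold and 4.82-fold lower. The 10 chamber genes counted 2 higher and 6 lower at a median of -1.07. With mixed cells counted as muscle, a setting chosen after seeing the data, 5 of 11 were higher and 5 lower at a median of -0.36, and in mixed cells alone 5 were higher and 3 lower at 0.47. NPPA, the atrial natriuretic peptide gene, was 8.87-fold lower, and GJA5, a gap junction gene of fast conduction, was higher with a ratio of 7.33.

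Venous pole and second heart field genes numbered 1 higher and 4 lower of 11, with a median of -0.27. OSR1, a zinc finger factor of the posterior second heart field, had a ratio of 12.7, and the growth factor genes FGF8 and FGF10 were 30.6-fold and 6.16-fold lower. Of 12 relatives of the members none was higher and 8 were lower, with a median of -0.76. These included RGS9, at 3.40 CPM with CHIR and 8.75 CPM with DMSO, RGS11 (2.85-fold lower), GNB5, the G protein beta subunit that binds this RGS group (1.53-fold lower), and CPNE8 (6.27-fold lower).

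DMSO at day 15 was next set against day 11. In muscle cells 3 members were at least 1.5-fold higher with DMSO and 1 was lower, in a comparison where 8.40% of 17876 genes were that much higher and 53.4% lower. SHOX2, with 303 UMIs with DMSO and 0 at day 11, was at least 158-fold higher against a floor of 3 UMIs per library. VSNL1 was 3.75-fold higher (2.87 to 4.94) and TBX18 2.54-fold higher (1.76 to 3.69). RGS6 was 8.58-fold lower (5.88 to 13.0), ISL1 had a ratio of 0.982 (0.895 to 1.08), and CPNE5 at 0.667 (0.596 to 0.746) lay just short of the limit for lower. The median log2 ratio was 0.66 for the 6 genes with SHOX2 at its bound and -0.67 over all genes tested. The folds of TBX18, VSNL1 and RGS6 rest on day 11 shares that were not above those of endothelial-like cells. The VSNL1 share was above that of mesenchymal-like cells. Markers of other types moved here too. WT1, TCF21 and UPK3B of the epicardial list were higher with DMSO and 3 others of the 9 tested lower, ACTA2, TAGLN and CNN1 of 5 smooth muscle genes and 3 of 4 neural genes were higher, and 3 of 4 endothelial genes were lower. Of 9 mesenchymal genes 3 were higher and 4 lower. The median cell held 4.47 epicardial and 6.07 smooth muscle UMIs per 10000 with DMSO, against 3.57 and 6.98 at day 11. Leaving out cells with at least 4 epicardial markers removed 3 DMSO and 3 day 11 cells, and TBX18 then had a log2 ratio of 1.40. So few cells were removed that this step cannot weigh the part of epicardial RNA. The part of all these markers was not tested. TBX18 turned to a log2 ratio of -0.61 when mixed cells were counted as muscle.

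Gene length moved with this comparison. Among genes with a RefSeq length (83.2% of those tested), the longest 10%, from 181.4 kb, had a median log2 ratio of -2.43 and 94.4% of them were lower with DMSO, against -0.68 and 53.6% over all with a length. The shortest 10% had a median of 0.18. RGS6, at chr14:71867335-72630029 and 762.7 kb long, is far into the longest 10%, while SHOX2 (10.5 kb) and ISL1 (11.3 kb) are short and TBX18 spans 32.1 kb. VSNL1 (117.0 kb) and CPNE5 (99.2 kb) lay above the medians near their length. For CHIR against DMSO the shortest 10% had a median of -0.42 and the longest 10% one of 0.11, against 0.00 over all. The part of gene length in the RGS6 value was not tested.

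**Figure D3:**
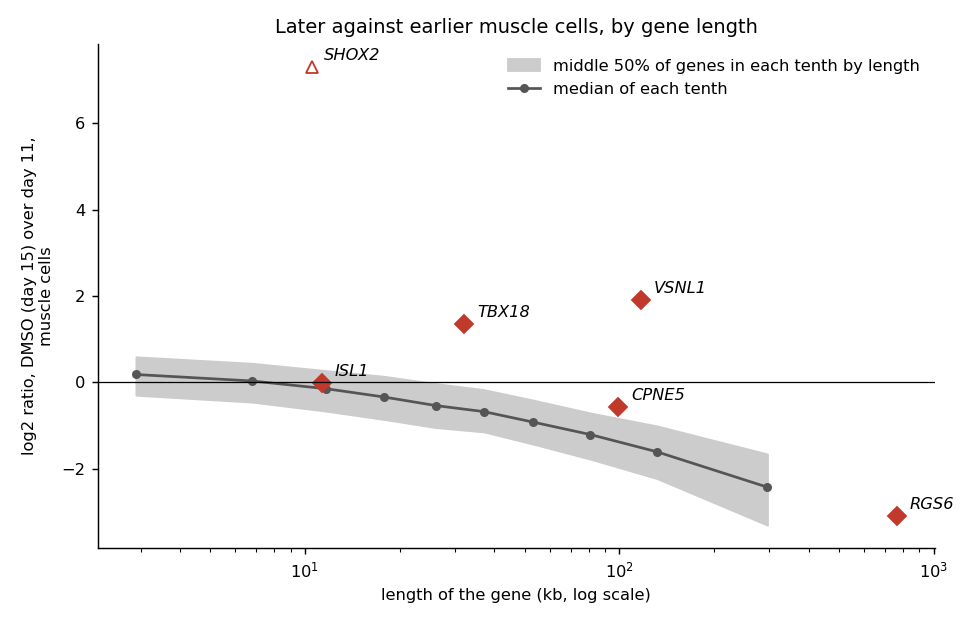
Log2 ratio of CPM, DMSO at day 15 over day 11 in muscle cells (vertical axis), against gene length in kb (log scale). The line joins medians of 10 equal groups of tested genes by length and the band is their middle 50%, with SHOX2 as an open triangle at its lower bound and the other 5 members as diamonds. The medians run from 0.18 in the shortest to -2.43 in the longest group, and SHOX2, TBX18, VSNL1 and CPNE5 lie above the band.

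Over all cells the picture by time differed from that in muscle for TBX18 and ISL1. SHOX2 was 33.0-fold and VSNL1 2.73-fold higher with DMSO, while RGS6 was 7.31-fold, TBX18 1.69-fold, CPNE5 1.66-fold and ISL1 1.64-fold lower, where 8.36% of 19957 genes were higher and 54.6% lower. Of 14 pacemaking and node genes in muscle 1 was higher with DMSO, BMP4 with a ratio of 1.74. The 9 lower ones included HCN4 (1.80-fold) and CACNA1D (10.3-fold), a calcium channel of pacemaking. In muscle 53.4% of 17876 genes were lower and 8.40% higher. The list had a median log2 ratio of -0.85, near the -0.67 over all genes, and the part of gene length was not tested. Of 10 chamber genes 4 were higher, among them NPPA (3.94) and MYL2 (5.36), a ventricular myosin light chain, and 3 were lower. Of 11 venous pole genes 5 were higher and 6 lower. NR2F1 and NR2F2, orphan nuclear receptors of atrial and venous identity, had ratios of 11.9 and 7.38. Of 13 relatives 1 was higher and 6 lower.

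CHIR at day 15 and day 11 are given side by side, since both comparisons above share a library with them. In muscle ISL1 was 6.71-fold lower with CHIR than at day 11, TBX18 had a ratio of 0.0767, RGS6 was at least 67.8-fold lower, CPNE5 was 1.65-fold lower and VSNL1 had a ratio of 1.87. SHOX2, with 7 and 0 UMIs, was under the minimum of 20 UMIs. In that comparison 9.33% of 17743 genes were higher and 56.6% lower.

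Within DMSO muscle, ISL1, TBX18, VSNL1 and RGS6 were found more often in cells with SHOX2 than in the rest. Of the 80 cells with SHOX2, 57 held ISL1 (71.2%), against 12.9% (11.4 to 14.6) of the other 1747. TBX18 was in 24 of the 80 (30.0%, 20.3 to 41.3) against 2.18%, VSNL1 in 22 (27.5%, 18.1 to 38.6) against 6.41% and RGS6 in 8 (10.0%, 4.42 to 18.8) against 1.20%. CPNE5 went the other way, in 11 cells with SHOX2 (13.8%, 7.07 to 23.3) against 20.8% of the rest (19.0 to 22.8), with intervals that overlap. Median depth was 13836 UMIs in cells with SHOX2 and 12716 in the rest, and after thinning the shares were 60.7% against 8.92% for ISL1, 14.3% against 1.30% for TBX18, 23.2% against 3.72% for VSNL1 and 5.36% against 0.558% for RGS6. With at least 2 UMIs asked of each gene, ISL1 was in 69.0% of 58 cells against 5.82% and TBX18 in 10.3% against 0.452%.

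Read from the other side, SHOX2 was in 57 of 283 ISL1 cells (20.1%) against 1.49% of muscle cells without ISL1, so most ISL1 muscle cells held no SHOX2 UMI at this depth. SHOX2 was in 24 of 62 TBX18 cells (38.7%) against 3.17%. The 29 RGS6 cells held ISL1 in 62.1% against 14.7% and SHOX2 in 27.6% against 4.00% of the rest. At least 3 of the 6 genes were seen in 4 CHIR muscle cells (0.305%) and in 50 DMSO muscle cells (2.74%), and at least 4 in 0 CHIR and in 16 DMSO muscle cells (0.876%). After thinning, 1 CHIR cell (0.0786%) and 21 DMSO cells (1.26%) held at least 3.

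**Figure D4:**
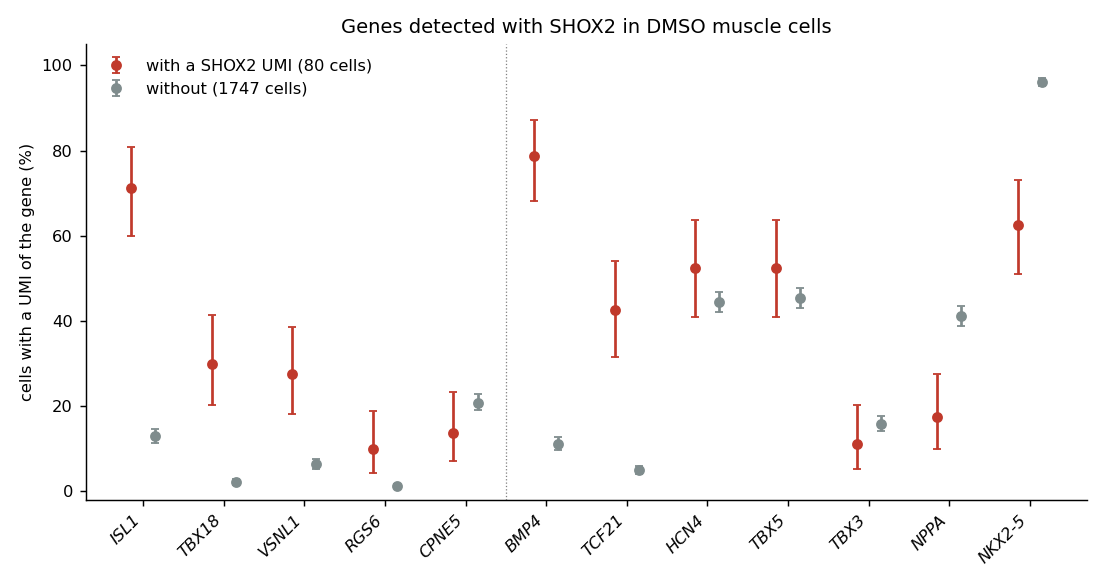
Percentage of DMSO muscle cells with a UMI of each named gene (vertical axis), in the 80 cells with a SHOX2 UMI and in the 1747 without, all from 1 library. Bars are exact binomial 95% intervals, and a dotted line parts the members from genes of the lists. ISL1 (71.2% against 12.9%) and BMP4 (78.8% against 11.1%) stand higher, and NKX2-5 (62.5% against 96.1%) and NPPA (17.5% against 41.2%) lower, in cells with SHOX2.

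The cells with SHOX2 were muscle cells in which most chamber genes tested were low. Their summed level of the muscle list was 287 per 10000 against 284 in cells without SHOX2, and TNNT2, cardiac troponin T, stood at 3504 against 3352 CPM. NKX2-5 was at 205 CPM in cells with SHOX2 and 753 CPM in those without (3.67-fold lower), and in 62.5% (51.0 to 73.1) against 96.1% of cells. Of 10 chamber genes tested none was at least 1.5-fold higher and 8 were lower, with a median log2 ratio of -1.85 when genes at 0 are set at their bound. The median of 14528 genes was -0.11, and 13.3% of them were higher and 30.6% lower. These all-gene values use no bound, so a gene with 0 UMIs in cells with SHOX2 counted as lower there. HEY2, a ventricular transcription factor, was 21.8-fold lower, IRX4, another, had a ratio of 0.0259 (0.00313 to 0.0936, 2 UMIs) and NPPB, a natriuretic peptide gene, 0.0280 (0.00576 to 0.0818, 3 UMIs). GJA1, another gap junction gene, had a ratio of 0.283 (0.0339 to 1.04, 2 UMIs). MYL2 and GJA5 had 0 UMIs in the cells with SHOX2 and were at least 6.57-fold and 2.57-fold lower. NPPA, at 248 against 325 CPM, stayed between the limits.

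Pacemaking and node genes were divided in the cells with SHOX2. Of 13 tested, 5 were higher and 3 lower at their bounds, with a median of 0.06. BMP4 stood at 201 CPM against 21.3 CPM in cells without SHOX2 (9.45), and NTM, a neural adhesion molecule, had a ratio of 11.0. CACNA1D (1.98) and KCNJ3 (1.99), a potassium channel subunit, were higher too. HCN4 was nearly level at 56.4 against 50.7 CPM (1.11, 0.851 to 1.43). TBX3 was 1.88-fold lower, at 8.81 against 16.6 CPM (ratio 0.532, 0.253 to 0.989), and its share of cells was 11.2% against 15.9% as deposited but 10.7% against 8.30% after thinning. BMP2 was 1.79-fold lower, and KCNJ5, with 0 UMIs, was at least 5.72-fold lower. CACNA2D2, also with 0 UMIs, had a bound of 1.27-fold, short of the limit.

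Among venous pole genes, 2 of 11 were higher and 3 lower in cells with SHOX2, with a median of 0.11. NR2F1 stood at 44.1 against 4.86 CPM (9.07) and NR2F2 at 132 against 21.3 CPM (6.22). MEIS1, a homeobox cofactor, was 2.18-fold lower, while OSR1 (ratio 0.145, 0.00363 to 0.819) and HOXB1 (0.643, 0.0158 to 3.86) had 1 UMI each. Of 12 relatives, 1 was higher, CPNE2 at 1.86, and 3 lower, among them TBX20, with 0 UMIs and at least 3.61-fold lower.

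By size alone, the 10 genes with the highest ratio among those with at least 50 CPM in cells with SHOX2 were DKK1, MYLK, LIMCH1, TCF21, MYH11, BMP4, DLK1, ISL1, PDLIM3 and CREB5. DKK1, a secreted inhibitor of Wnt signalling, stood at 406 CPM in cells with SHOX2 against 17.1 CPM in those without (23.8, 20.7 to 27.3). MYLK, the smooth muscle myosin kinase, and MYH11, smooth muscle myosin, had ratios of 12.5 and 9.80. TCF21, a factor of epicardial cells and fibroblasts that is also on the epicardial list, stood at 101 against 9.68 CPM (10.5), and it was in 42.5% against 4.92% of cells.

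Markers of other cell types moved with SHOX2 as well. The smooth muscle list summed to 19.9 per 10000 in cells with SHOX2 against 10.0 in those without, and 3 of its 5 genes were higher and MYOCD lower. The mesenchymal list summed to 4.72 against 2.46, with muscle cells held under 10 each by the gate, and with 4 of 8 tested genes higher (TWIST1 3.31, COL3A1 2.54, PDGFRA 2.30 and COL1A2 2.19), and DCN, LUM and POSTN between the limits. Of 6 epicardial genes tested 3 were higher (TCF21, SEMA3D with 5.58, and WT1 with 2.39, 0.463 to 7.84, on 3 UMIs) and 1, KRT19, was lower, at a median log2 ratio of 0.63. The summed epicardial level was nevertheless 2.93 against 6.65, most of it KRT19 at 179 against 650 CPM. UPK3B and the endothelial marker EMCN, with 0 UMIs in cells with SHOX2 against 21 and 31 in the rest, had bounds of 1.00, so no difference was detectable at this depth. Of the neural list the 3 genes tested were higher, TUBB3 with 3.67, STMN2 with 7.35 and PRPH with 3 UMIs. Top doublet scores were held by 1 of the 80 cells and by 5 of 1747 (0.286%). Called doublets had already been removed from this library, so these low counts cannot say whether the cells are doublets. The part of these markers in the values above was not tested. With mixed cells counted as muscle, the ratios were 12.7 for DKK1, 6.33 for BMP4 and 4.33 for TCF21.

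**Figure D5:**
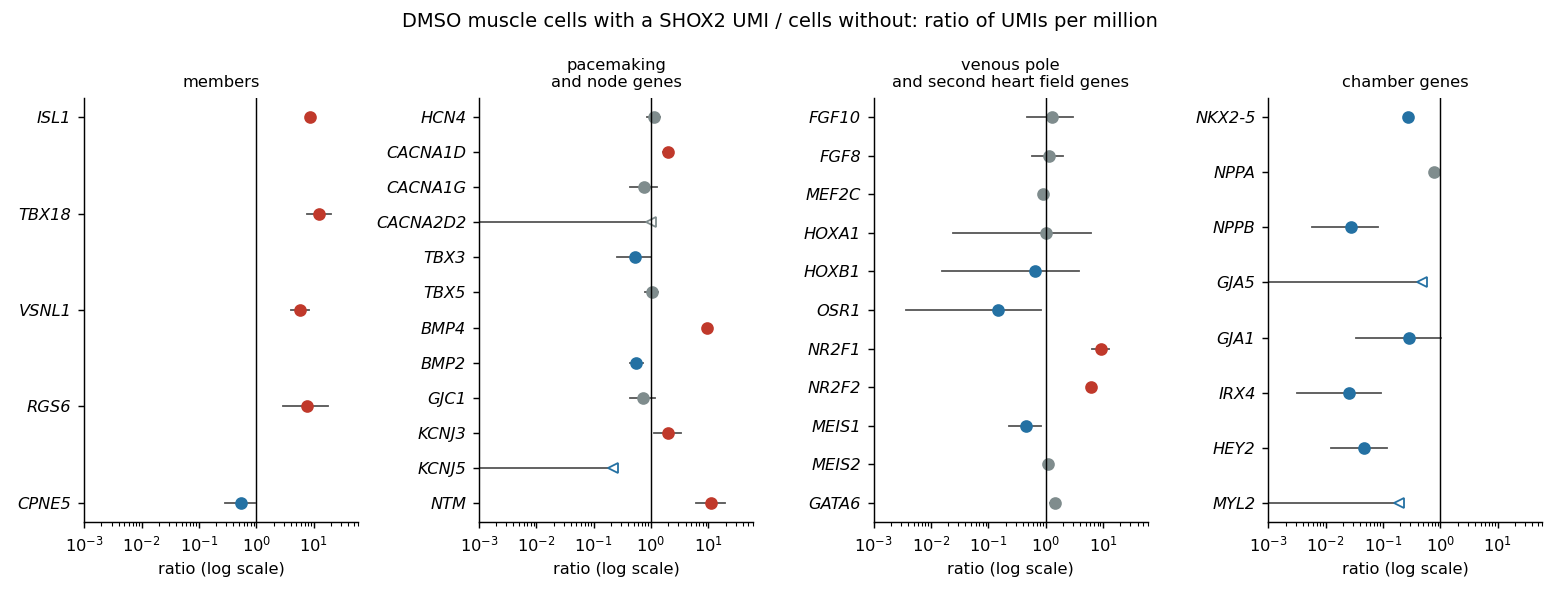
Ratio of CPM (horizontal axes, log scale), DMSO muscle cells with a SHOX2 UMI over those without, for the other members and the genes shown of the pacemaking and node, venous pole and second heart field, and chamber lists. Lines are 95% intervals of counting error in 1 library, red and blue points lie past 1.5-fold, and open triangles are upper limits of genes with 0 UMIs in the cells with SHOX2. NKX2-5, HEY2 and IRX4 lie to the left, and NR2F1, NR2F2, BMP4 and NTM lie to the right.

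Muscle cells with a VSNL1 UMI were set against the rest in each library. The VSNL1 share of muscle lay above the endothelial-like interval in none of them, and above the mesenchymal-like interval in each. The 67 CHIR muscle cells with a VSNL1 UMI held NR2F1 at 28.8 CPM against 3.61 CPM in the other 1245 (7.97, 4.82 to 12.8) and NR2F2 at 114 against 20.7 CPM (5.49, 4.36 to 6.87). The same receptors were higher in VSNL1 cells with DMSO (4.29 for NR2F1, and 86.9 against 21.2 CPM of NR2F2) and, for NR2F2, at day 11 (5.40, 2.93 to 9.27), where NR2F1 rested on 3 UMIs and the VSNL1 share was below the endothelial-like one. Of the CHIR cells with VSNL1, 57 held 1 UMI of it. Among pacemaking and node genes, CACNA1D was higher in CHIR cells with VSNL1 at a ratio of 3.03 (2.46 to 3.70). TBX3 was at 2.53 (1.97 to 3.22), HCN4 at 1.96 (1.41 to 2.68) and BMP2 at 6.04 (4.99 to 7.26). The rest of that list and the share of all genes past 1.5-fold are not given for this split, so these values have no background. TBX3 and BMP2 did not differ by the fold used in VSNL1 cells with DMSO, at 1.20 and 1.08, or at day 11, at 1.06 and 1.13. ISL1 was higher in VSNL1 cells with CHIR (2.64, 1.22 to 5.10) and with DMSO (3.95, 3.33 to 4.66), and CPNE5 with CHIR (2.34, 1.58 to 3.36). IRX4 and HEY2 were lower in VSNL1 cells in both day 15 libraries, by 1.89-fold and 2.22-fold with CHIR and by 2.70-fold and 4.33-fold with DMSO. NPPA was instead higher in VSNL1 cells, at 85.2 against 34.0 CPM with CHIR and 930 against 268 CPM with DMSO. Median depth was 12272 UMIs in CHIR cells with VSNL1 and 14352 in the rest, none with VSNL1 had a top doublet score, and smooth muscle markers summed to 17.3 against 11.3 per 10000, whose part was not tested.

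At day 11, where no muscle cell held SHOX2, ISL1 was rarer in muscle cells with CPNE5 than in those without. ISL1 was in 8.46% of the 816 cells with CPNE5 (6.64 to 10.6) against 22.3% of those without, and in 4.77% against 14.1% after thinning. Cells with ISL1 held CPNE5 at 11.4 CPM against 32.4 CPM in cells without (2.83-fold lower). They also held less TBX5, a T-box factor of the posterior heart, at 87.3 against 172 CPM, less NPPA, at 32.0 against 93.7 CPM, and less HCN4, at 61.2 against 99.3 CPM. Their levels of BMP4 (48.2 against 9.60 CPM), NPPB (195 against 34.5 CPM), FGF8 (78.4 against 33.8 CPM) and FGF10 (59.0 against 31.9 CPM) were higher. Of these genes, TBX5 (221 against 132 CPM) and NPPA (146 against 58.4 CPM) were higher and FGF10 (17.3 against 44.4 CPM) was lower in cells with CPNE5. IRX4 was also higher in cells with CPNE5 (126 against 69.3 CPM). The other genes are not reported here for cells with CPNE5. The share of all genes past 1.5-fold is not given for either split, so these values have no background. The ISL1 muscle cells at day 11 held RGS6 in 12.6% against 7.38% of cells, both within the interval of the endothelial-like share (3.21 to 17.7). Smooth muscle markers summed to 13.8 per 10000 in day 11 cells with ISL1 and 8.26 in those without, and top doublet scores were in 6.62% against 2.83%, whose part was not tested.

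Over the 17 groups of library and class with at least 50 cells, the genes whose pattern was most like each member's were found by Pearson's r of log2(CPM + 10) among 9827 genes. These groups share libraries and depth, so r is a description. For SHOX2 they were C12orf73 (0.86), GHRH and POLR2L (0.82 each), and for ISL1 LIN7A (0.89), AC010478.1 (0.88) and CDO1 (0.84). TBX18 was matched by SMOC2 and BICDL1 (0.93 each) and LEPROTL1 (0.91), SMOC2 being a matrix protein also on the node list. VSNL1 was matched by TPI1 (0.84), GAPDH (0.82) and MIF (0.81), RGS6 by SORL1 (0.95), ADGRL2 and NR2C1 (0.94 each), and CPNE5 by PPP1R2 (0.90), S1PR1 (0.89) and ALAS1 (0.87). Among the members the highest r was 0.72, between ISL1 and RGS6, and the lowest was -0.43, between TBX18 and VSNL1. SHOX2 had r of 0.59 with VSNL1, 0.30 with ISL1 and 0.07 with TBX18. VSNL1 reached at most 8.30 CPM in these groups, below the 10 added and the 20 CPM asked of matched genes. Its r values thus rest on a narrow range. The DMSO endoderm-like cells, where VSNL1 stood at 25.9 CPM, were too few to enter.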

How the data were processed

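The 3 single-cell libraries were made with 3-prime droplet chemistry after sorting of live cells, per the labels' protocols, which give day 15 even in the day 11 sample. The authors deposited unnormalised UMI counts of each gene in each cell, processed with Cell Ranger 6.1.1 on GRCh38 per the submitters' processing notes, which list R 4.1.0 and Seurat 4.3.0 besides for day 11. The counting of intron reads is not given in the sources. Genes per deposited cell run between 1802 and 5999, so cells had been filtered. The H3K27ac peak list and input chromatin were not used here.

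Doublets were called with Scrublet in scanpy 1.11.5 (expected rate 0.06) and removed. Classes were gated on marker UMIs per 10000 (muscle at least 60, mesenchymal at least 10, both mixed) or on at least 4 markers with a UMI for other types, with cut-offs set from marker sums alone. Barcodes shared between libraries numbered 3 to 6. Counts were summed per library and class and divided by all UMIs (CPM). Intervals are exact (Poisson for levels, Clopper-Pearson for shares, conditional binomial for ratios) and cover counting error only. A gene was called past 1.5-fold among genes with at least 20 UMIs over both groups, a group at 0 was set to a floor of 3 UMIs, and log2 ratios add 0.5 to each count. Shares were recomputed after thinning to 6000 UMIs, which left out 95 CHIR, 170 DMSO and 247 day 11 cells. With 1 library per group no test was run. Only the ratio of CPM and its interval were tested on simulated counts. The software was Python 3.11.15, numpy 2.4.6, scipy 1.17.1 and pandas 2.3.3. Genes named were the members, the fixed lists, the 3 most similar patterns of each member, and the 10 highest ratios in cells with SHOX2 at 50 CPM or more. Other genes named are markers of the class lists. Some genes of the lists enter the counts but are not reported here by name. The members and the lists were chosen with earlier results of these data known, so no count over them is independent support. Promoters and gene lengths are RefSeq's for GRCh38.p14.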

Additional observations from a re-analysis of the deposited data

How the results depend on the processing

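Values were recomputed with other gates, doublet rules, scalings and count minimums. Of the counts and shares that answer a comparison, 82 recomputed values stayed within 1.5 times or the counting interval and 5 moved. The number of members lower with DMSO than at day 11 in muscle was 2 in place of 1 with the mesenchymal limit halved, with doublet calls kept, without the highest doublet scores and with mixed cells counted as muscle. SHOX2 was in 3.35% in place of 4.38% of DMSO muscle cells after thinning, which takes UMIs away by construction. TBX18, DMSO against day 11, reversed to a log2 ratio of -0.61 from 1.34 with mixed cells counted as muscle, a setting chosen after seeing the data, and the cause was not tested. Of the single genes and shares 193 values were unchanged by the same measure and 38 moved. With CHIR against DMSO in muscle, 5 members were lower in all settings but 2. The mesenchymal limit halved gave 4 of 5 tested, and leaving out the SHOX2 cells gave 4 of the other 5. Totals without mitochondrial and ribosomal genes moved the median of all genes from -0.03 to 0.16 for CHIR against DMSO, and from -0.67 to -0.46 for DMSO against day 11, and turned the median of pacemaking genes from -0.06 to 0.12 in the first. No paired analysis was possible because each single-cell group has 1 library. Small classes and single UMIs limit the depth, and levels near the endothelial-like share cannot be told from free RNA by that measure.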
